A study of Mus musculus with 29 samples.

Results

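Fibroblasts of the mouse common bile duct that carried the Gli2FF allele were compared with wild type fibroblasts of the same duct. The comparison rests on 7 of the 29 libraries of the study, 2 from Gli2FF animals and 5 from wild type animals, and covers the 24383 genes that passed a filter on low counts, of 55401 gene symbols counted. Both groups carried Pdgfra:CreERT2, a Cre recombinase that is made where Pdgfra is active and works after an inducing drug, and Rosa26:lox-STOP-lox-tdTomato, a reporter that turns red once Cre has acted. The Gli2FF animals also carried Gli2FF, read here by convention as loxP-flanked Gli2, which Cre removes in the same cells. About 1000 mesenchymal cells per animal, labelled peribiliary mesenchymal cells, were sorted straight into lysis buffer, and full-length cDNA was amplified and sequenced. The labels give no age, sex, strain, inducing dose or time after induction, and they do not say which part of Gli2 is flanked. Gene deletion is limited to cells that made Cre, and cells that escaped it would still count if they were sorted. Gli3FF (2 libraries), Gli2FFGli3FF (4) and SmoFF (4), which carried the same driver and reporter, were used for direct comparisons. The SmoM2 (3) and Ctnnb1FF (3) libraries entered only the filter, the scaling and the estimate of spread. All 23 Pdgfra libraries shared 1 such estimate.

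Gli2 is a zinc finger transcription factor of the Hedgehog pathway. Hedgehog ligands bind the receptor Ptch1, which then stops holding back Smo, and Smo signals through the primary cilium so that Gli2 and Gli3 are no longer cut into repressors. Gli2 is mostly an activator of target genes in this pathway and Gli3 mostly a repressor, while Gli1 is an activator that is itself a target. In many organs the ligand comes from epithelium and the response from the mesenchyme beneath it, and the adventitia around ducts and vessels holds fibroblasts that respond to it.

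All 7 libraries had the profile of fibroblasts. The summed level of 7 fibroblast genes (Pdgfra, Pdgfrb, Col1a1, Col1a2, Col3a1, Dcn and Lum) was 26900 to 37400 CPM in wild type and 22060 and 22770 CPM in Gli2FF, where CPM is the read count of a gene scaled to the depth of its library. Ptprc, Alb, Pecam1, Epcam and Sox10, markers of blood, liver, vessel, duct and Schwann cells, each stayed at 5.38 CPM or below in every one of the 7 libraries. Other members of these marker lists were higher in both groups. Trf, on the hepatocyte list, was at 138 to 534 CPM in wild type and 358 and 465 CPM in Gli2FF. Tek, on the endothelial list, was at 54.1 to 86.2 CPM and at 21.2 and 56.9 CPM. Krt19, on the cholangiocyte list, was at 10.6 to 30.5 CPM and at 16.4 and 16.8 CPM. None of the 10 endothelial, 4 hepatocyte, 14 cholangiocyte, 13 mesothelial or 14 smooth muscle and pericyte markers that passed the filter was called, nor was any of 12 acinar or 3 erythroid markers. The smooth muscle and pericyte markers nonetheless had a median log2 change of 1.59, with 11 of 14 above 0. For 7 of 14 both Gli2FF libraries were higher than every wild type library. The same held for 5121 of all 24383 genes. Acta2, smooth muscle actin, was at 47.9 and 110 CPM against 26.8 to 33.6 CPM (adjusted p = 0.171), and Rgs5, a pericyte marker, at 5.41 and 12.8 CPM against 0 to 2.64 CPM (adjusted p = 0.124). With limma voom 4 of these 14 were called higher and 1 lower. Their summed level was 348 and 355 CPM in Gli2FF, inside the wild type range of 260 to 378 CPM, and their part in the results was not tested. The summed immune markers were 64.8 and 246 CPM in Gli2FF against 23.4 to 83.2 CPM in wild type, and Cd14 made up 47.5 and 223 CPM of them. Of the 12 immune markers that passed the filter, 5 had a log2 change above 0 and 7 below 0. Lyz2 was at 0.617 and 1.06 CPM against 3.51 to 37.7 CPM, and Cd68 at 10.4 and 10.6 CPM against 0 to 5.42 CPM. The summed Schwann and neural markers were 126 and 121 CPM against 56.8 to 60.1 CPM, with Ncam1 at 102 and 83.4 CPM. Both Cd14 (without Gli2FF replicate 2 adjusted p = 0.442) and Ncam1 (without replicate 1 adjusted p = 0.134) were called higher. Ptprc was at 0.0474 and 0 CPM and Sox10 at 0.0474 and 0 CPM in the Gli2FF libraries, and their part in the results was not tested. In such sorted bulk samples, fewer cells of a type and less RNA per cell cannot be told apart. The Gli2FF libraries held 15021796 and 20935275 counts and the wild type libraries 21226029 to 30520596. Both Gli2FF libraries lay outside all 5 wild type libraries in the number of genes detected (25279 and 28028 against 21127 to 24483), in the TMM scaling factor (1.405 and 1.445 against 0.948 to 1.302) and in the share of pseudogenes in reads outside the ribosomal RNA locus (5.39% and 5.65% against 5.76% to 8.70%). Gli2FF replicate 2 expressed Xist at 965 CPM and Ddx3y at 1.65 CPM, whereas Gli2FF replicate 1 (0.332 and 119 CPM) and every wild type library (Xist 0 to 0.169 CPM) had the opposite pattern, so replicate 2 differs from all controls in the expression of sex-linked genes. For wild type replicate 5 title and description differ, the latter listing SmoFF, but its Smo level of 28.7 CPM lay among the other wild type libraries (22.6 to 36.3 CPM) and above the 4 SmoFF libraries (6.81 to 9.05 CPM).

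Of the 24383 genes tested, 1423 were called at a Benjamini-Hochberg adjusted p under 0.05 in edgeR's quasi-likelihood test (5.84%). In Gli2FF, 628 genes were higher (2.58%) and 795 were lower (3.26%), and the median log2 change of all genes was 0.12. With a different scaling of library sizes (RLE) the split turned to 817 higher and 654 lower, so the balance of directions depends on the scaling. Protein-coding genes split into 572 higher and 523 lower, and pseudogenes into 21 higher and 238 lower. The lower share of pseudogene reads in both Gli2FF libraries moved with that split, and its part in the calls was not tested. The count rested on few animals. It was 179 without Gli2FF replicate 1, 588 without Gli2FF replicate 2, 895 without wild type replicate 1, 931 without wild type replicate 2 and 200 with wild type replicates 4 and 5 as the only controls. A core of 94 genes, 36 higher and 58 lower, was called in the same direction without each of the 7 libraries in turn and with each of the 2 sets of controls. Many of its lower genes were processed pseudogenes. It also held Rps2, Rpl34, Plac9a, Plac9b, Gm9780 and, among the higher genes, Cwc22 and several of its clustered copies. These have near-identical copies, and their limits are described further on. The plot of list calls sets the gene groups described in the following paragraphs side by side.

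**Figure D1:**
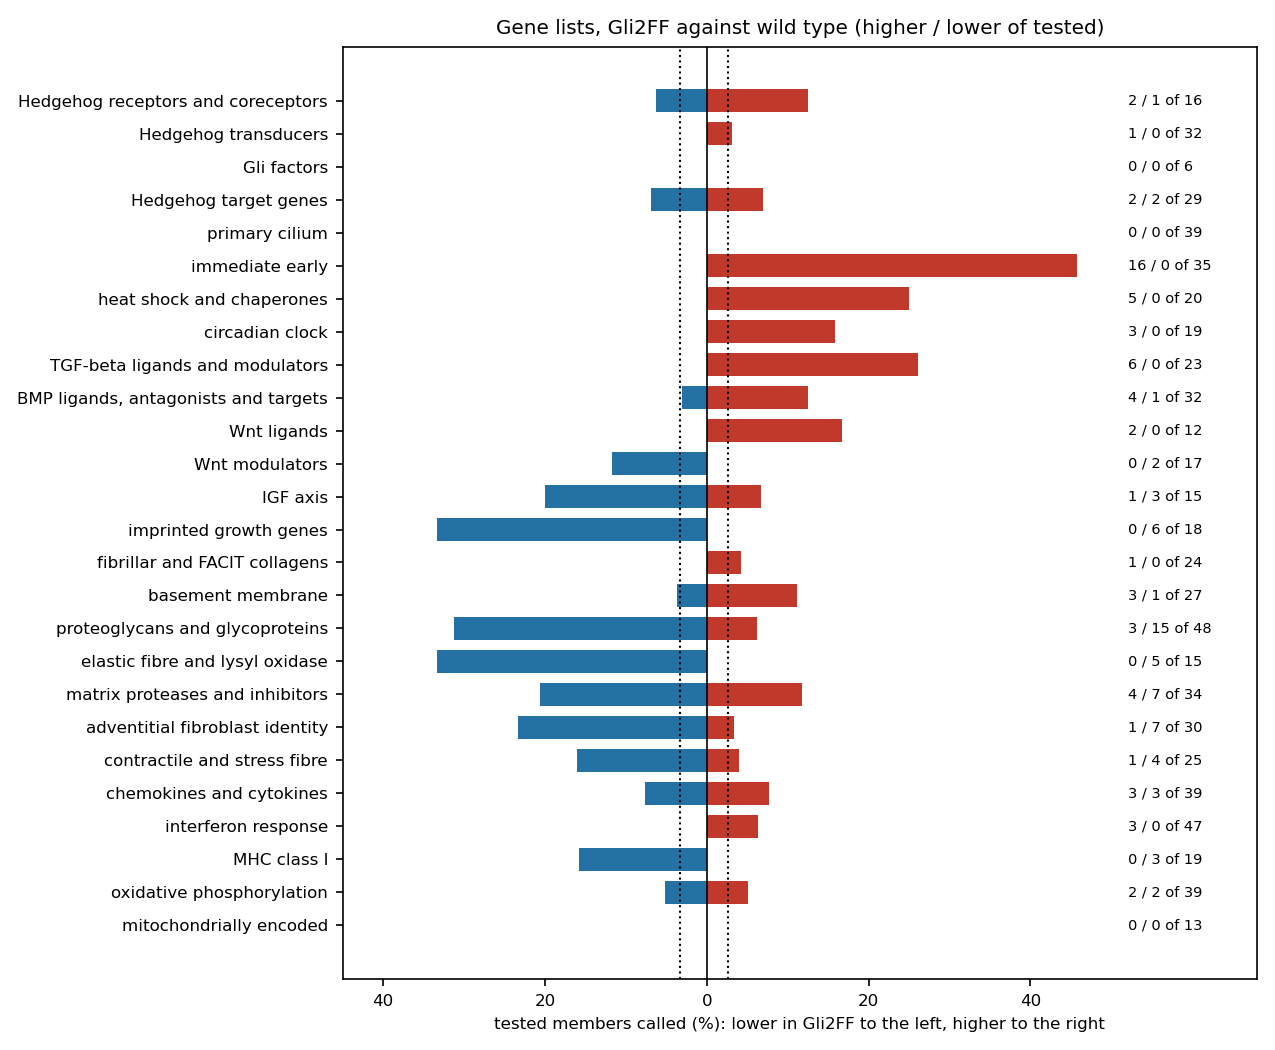
Share of the tested members of 26 gene lists that were called higher (red, right) or lower (blue, left) in Gli2FF than in wild type, in percent, with the numbers called higher / lower of tested at the right. Dotted lines mark the shares over all 24383 genes (2.58% higher and 3.26% lower). The immediate early list reaches 16 of 35 higher, and the proteoglycan and glycoprotein list 15 of 48 lower.

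Gli2 transcript itself was measured at 18.7, 19.7, 20.9, 12.75 and 16.5 CPM in wild type replicates 1 to 5 and at 12.8 and 6.91 CPM in the Gli2FF libraries. The gene lies on chromosome 1 from 118834132 to 119053619 on the minus strand (mm10, GENCODE M21). One Gli2FF library was below every wild type library and the other overlapped the lowest of them by a small margin. The log2 change was -0.85 ± 0.52 (SE) with an adjusted p of 0.398, so a loss of Gli2 transcript was not called. Counts per gene cannot show a deleted exon, and a transcript that has lost only part of its exons still yields reads, so this measurement does not check the label. In the Gli2FFGli3FF libraries Gli2 was at 1.55, 6.39, 5.405 and 5.997 CPM, and in Gli3FF at 8.63 and 26.2 CPM. Gli3, the other full-length Gli factor, was at 47.1 and 30.1 CPM against 30.8 to 44.9 CPM in wild type (log2 change 0.08 ± 0.35, adjusted p = 0.939). None of the 6 genes on the list of Gli factors was called.

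The Hedgehog lists held the following calls, where 5.84% of all genes were called. Of 16 receptors and coreceptors 2 were higher and 1 was lower, of 32 transducers 1 was higher and none lower, of 29 target genes 2 were higher and 2 were lower, and of 39 primary cilium genes none was called. Gli1 was at 13.0 and 4.73 CPM against 13.4, 8.48, 7.96, 12.2 and 27.0 CPM in wild type (log2 change -0.65 ± 0.75, adjusted p = 0.705). Ptch1, the ligand receptor and a direct target, was at 120 and 28.8 CPM against 20.6 to 37.0 CPM. It was called higher (log2 change 1.27 ± 0.38, adjusted p = 0.0484), but replicate 2 lay inside the wild type range, and without replicate 1 the log2 change was -0.12 with an adjusted p of 1. Leaving out any 1 of the 5 wild type libraries also ended that call, with adjusted p up to 0.113. Hhip, a surface protein that binds and holds the ligand and is a target gene as well, was at 0.474 and 0.993 CPM against 1.37, 7.66, 3.59, 1.27 and 14.4 CPM. Both Gli2FF libraries were below every wild type library, and the log2 change of -2.91 ± 1.01 was not called (adjusted p = 0.0947). Of the 19 alternatives, 2 called Hhip lower, DESeq2 (adjusted p = 0.0243) and edgeR with no filter on low counts (1.41e-08). Smo, the signal transducer, was at 51.0 and 49.4 CPM against 22.6 to 36.3 CPM (log2 change 0.76 ± 0.25, adjusted p = 0.0727). It was not called either, but 3 alternatives called it higher, RLE scaling (adjusted p = 0.0407), DESeq2 (0.0109) and limma voom (0.00885).

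Among the target genes, Osr1, Igfbp6 and Grem1 separated the groups without overlap. Osr1, a zinc finger factor of embryonic and connective tissue mesenchyme, was at 62.0 and 99.2 CPM against 238.7, 169, 180, 225.5 and 198 CPM in wild type. The log2 change was -1.33 ± 0.24 (adjusted p = 0.00165), and of 19 alternative analyses it was lost only without Gli2FF replicate 1 (adjusted p = 0.129). Igfbp6, a secreted protein that binds insulin-like growth factor II, was at 366 and 348 CPM against 1004, 897, 940, 1065 and 813 CPM. Its fall of -1.40 ± 0.25 on the log2 scale (adjusted p = 0.00142) was called in all 19 alternatives. Grem1, a secreted antagonist of bone morphogenetic proteins, was at 181 and 49.3 CPM against 2.004 to 12.5 CPM in wild type, a log2 change of 3.85 ± 0.61 (adjusted p = 6e-04). The Gli2FF libraries differed from each other more than 3-fold for Grem1, and without replicate 1 its adjusted p was 0.0802. Gpc3, a surface proteoglycan that binds Hedgehog ligands, fell from 210 to 316 CPM to 154 and 106 CPM (log2 change -1.04 ± 0.24, adjusted p = 0.00998), a call that ended without Gli2FF replicate 2 (log2 change -0.86, adjusted p = 0.17). Mosmo, which holds down Smo at the cell surface, and Cul3, a ubiquitin ligase scaffold, rose by 1.39 and 1.28 on the log2 scale (adjusted p = 0.00795 and 0.00851). Neither was called without Gli2FF replicate 1 (adjusted p = 0.746 and 0.407).

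Osr1 and Grem1 were also set apart in the other genotypes with a floxed Gli allele, in a grouping made after the values were seen. In the 8 libraries of Gli2FF, Gli3FF and Gli2FFGli3FF, Osr1 ran from 55.7 to 103 CPM, and in the 9 wild type and SmoFF libraries from 169 to 238.7 CPM. Grem1 ran from 24.6 to 181 CPM in the former and from 2.004 to 12.5 CPM in the latter. No such separation was seen for Igfbp6, which ran from 348 to 921 CPM and from 779 to 1065 CPM. The labels name no preparation date or sequencing run, so a difference between genotypes and one between runs cannot be told apart here, and Rps2, a ribosomal protein gene described further on, separated the same libraries.

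**Figure D2:**
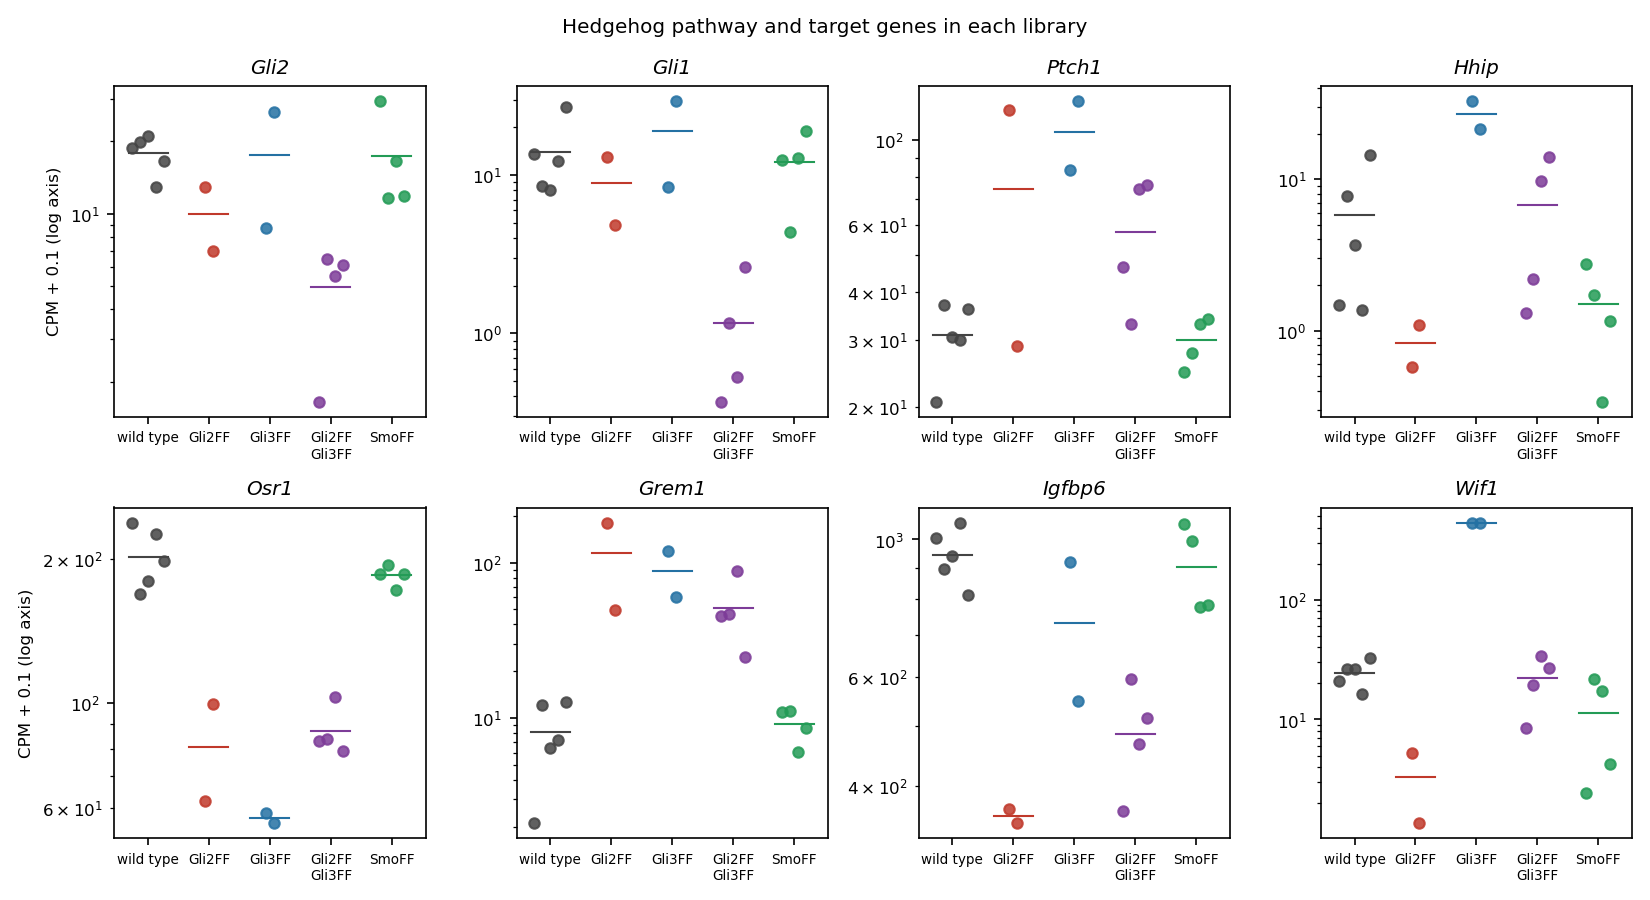
Levels of 8 Hedgehog pathway and Wnt antagonist genes in each library, as CPM + 0.1 on a log axis that differs between panels, for wild type (5 libraries), Gli2FF (2), Gli3FF (2), Gli2FFGli3FF (4) and SmoFF (4). Points are libraries and bars are group means. Gli2FF points lie below every wild type point for Hhip, Osr1, Igfbp6 and Wif1, above them for Grem1, and for Gli1 and Ptch1 1 of the 2 points lies inside the wild type range.

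Of the gene lists, the one with the most members called higher was that of immediate early genes, which are transcribed within minutes of a stimulus from promoters that hold preformed factor binding sites. The orphan nuclear receptor genes Nr4a1, Nr4a2 and Nr4a3 are typical members, induced through cyclic AMP and the factor CREB, which binds the cyclic AMP response element. The 250 bases before the RefSeq start of these 3 genes (GRCm38.p6) are shown because all 3 genes rose and each stretch holds several copies of the core of that element, with every TGACG and its reverse complement CGTCA in capitals.
Nr4a1 (chr15:101266596-101266845, plus strand): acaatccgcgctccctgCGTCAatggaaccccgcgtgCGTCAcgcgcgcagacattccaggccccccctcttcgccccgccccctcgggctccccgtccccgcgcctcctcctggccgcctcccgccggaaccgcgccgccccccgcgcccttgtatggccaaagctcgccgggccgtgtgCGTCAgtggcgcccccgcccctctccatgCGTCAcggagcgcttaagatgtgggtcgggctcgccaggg
Nr4a2 (chr2:57124004-57124253, minus strand): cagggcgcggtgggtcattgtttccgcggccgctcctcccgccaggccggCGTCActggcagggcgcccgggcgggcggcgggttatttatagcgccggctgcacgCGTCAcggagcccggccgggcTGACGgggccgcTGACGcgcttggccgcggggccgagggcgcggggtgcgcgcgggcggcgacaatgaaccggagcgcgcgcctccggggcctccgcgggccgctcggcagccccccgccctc
Nr4a3 (chr4:48045055-48045304, plus strand): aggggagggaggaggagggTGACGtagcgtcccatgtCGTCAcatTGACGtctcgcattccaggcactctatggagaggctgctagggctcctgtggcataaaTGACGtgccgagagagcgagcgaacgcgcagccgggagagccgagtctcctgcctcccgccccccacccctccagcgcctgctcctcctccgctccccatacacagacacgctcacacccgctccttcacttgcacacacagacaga
Each stretch held 4 such cores. Of the 35 immediate early genes, 27 had an entry in the RefSeq promoter table, and 15 of them (55.6%) held TGACG on either strand in these 250 bases, against 19.8% of 27025 genes in the table. Of the 16 members that were called higher, 14 had an entry and 11 held TGACG. The full element TGACGTCA, which contains the core, was found in 3 of the 27 (Btg2, Dusp1 and Maff) and in 1.77% of all genes. The Gli site GACCACCCA was found in 69 of 27025 genes (0.255%) and in the windows of 0 of the 20 Hedgehog target genes with an entry, a statement on these letters in these windows only. Such matches describe the sequences, and no binding was measured.

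Of the 35 immediate early genes, 16 were called higher in Gli2FF and none lower, against 2.58% of all genes called higher, and the median log2 change of the list was 1.27. Nr4a1 was at 27.9, 50.8, 43.3, 33.8 and 100 CPM in wild type and at 372 and 499 CPM in Gli2FF. The lower Gli2FF library was above every wild type library by more than 3-fold, and the log2 change of 3.09 ± 0.42 (adjusted p = 0.00014) was called in all 19 alternatives. Nr4a2 was at 0.482, 0.128, 3.34, 4.20 and 3.89 CPM in wild type and at 130 and 166 CPM in Gli2FF, a log2 change of 5.93 ± 1.07 (adjusted p = 0.00178) that was lost only with wild type replicates 4 and 5 as the sole controls (adjusted p = 0.105). Nr4a3 was at 6.16 to 15.2 CPM in wild type and at 39.6 and 110 CPM in Gli2FF (log2 change 3.11 ± 0.73, adjusted p = 0.0119). In all 3 genes the groups did not overlap, although the call of Nr4a3 ended without Gli2FF replicate 2 (adjusted p = 0.262).

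Egr2, a zinc finger factor of the early growth response family, rose from 2.52 to 8.65 CPM to 53.5 and 94.5 CPM (log2 change 3.64 ± 0.46, adjusted p = 7.65e-05). Atf3, a stress-induced partner of the AP-1 factors, rose from 10.02 to 56.3 CPM to 163 and 430 CPM (log2 change 3.41 ± 0.53, adjusted p = 0.000495). Btg2, an antiproliferative gene, was at 31.6 to 91.3 CPM in wild type and at 376 and 446 CPM in Gli2FF (log2 change 2.83 ± 0.49, adjusted p = 0.00122). Klf4, a Krüppel-like factor, rose from 101.5 to 235 CPM to 545 and 519 CPM (log2 change 1.68 ± 0.30, adjusted p = 0.0018). Fos, a core AP-1 subunit, was already abundant in wild type, at 455 to 729 CPM, and was at 1457 and 1455 CPM in Gli2FF (log2 change 1.36 ± 0.27, adjusted p = 0.00352). Dusp1, a phosphatase that shuts off MAP kinases, rose by 1.46 on the log2 scale (adjusted p = 0.00721).

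The rise of this list held with either Gli2FF library alone for some genes only. Without Gli2FF replicate 1, 9 of the 35 were called higher, and without replicate 2, 9 were called higher. Egr2, Atf3, Nr4a1, Nr4a2, Klf4 and Btg2 were called in both settings. Without replicate 1 the adjusted p of Fos was 0.0676, and without replicate 2 that of Dusp1 was 0.269. With wild type replicates 4 and 5 as the only controls, 2 members were called. The log2 changes of Nr4a2, Atf3 and Btg2 were 5.19, 2.87 and 2.26 in that setting, and none of them was called (adjusted p = 0.105, 0.0653 and 0.113).

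Heat shock and clock genes rose in smaller numbers. Of 20 heat shock and chaperone genes 5 were higher and none was lower, where 2.58% of all genes were called higher and 3.26% lower. Hspa1b, an inducible Hsp70 gene, was at 10.9, 13.6, 16.9, 9.67 and 15.1 CPM in wild type and at 96.6 and 97.8 CPM in Gli2FF, a log2 change of 2.88 ± 0.33 (adjusted p = 3.73e-05) that was called in all 19 alternatives. Hsp90aa1, the inducible Hsp90 gene, rose by 1.04 (adjusted p = 0.00429) and Dnajb4, an Hsp40 cochaperone, by 1.38 (adjusted p = 0.0043) on the log2 scale. The direction of the list rested on 1 animal: without Gli2FF replicate 2 it held 2 members called higher and 3 called lower. Hsp90aa1 was not called in that setting (adjusted p = 0.343), and Dnajb4 was not called without replicate 1 (adjusted p = 0.111). Of 19 circadian clock genes 3 were higher, against the same 2.58% of all genes. Per1 was at 92.1 and 50.9 CPM against 27.2 to 34.2 CPM, Per2 at 25.4 and 19.6 CPM against 1.71 to 4.77 CPM, and Nr1d2 at 63.2 and 32.6 CPM against 8.34 to 14.4 CPM. Period genes repress the clock's activators and Nr1d2 encodes the receptor Rev-erb beta, and the levels of all of them follow the time of day. The labels give no time of tissue collection. Per1, Per2 and Nr1d2 were not called without Gli2FF replicate 1 (adjusted p = 0.524, 0.311 and 0.413), and Per2 also ended without Gli2FF replicate 2 (0.119) and without wild type replicate 1, 2, 3 or 5 (up to 0.0848).

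**Figure D3:**
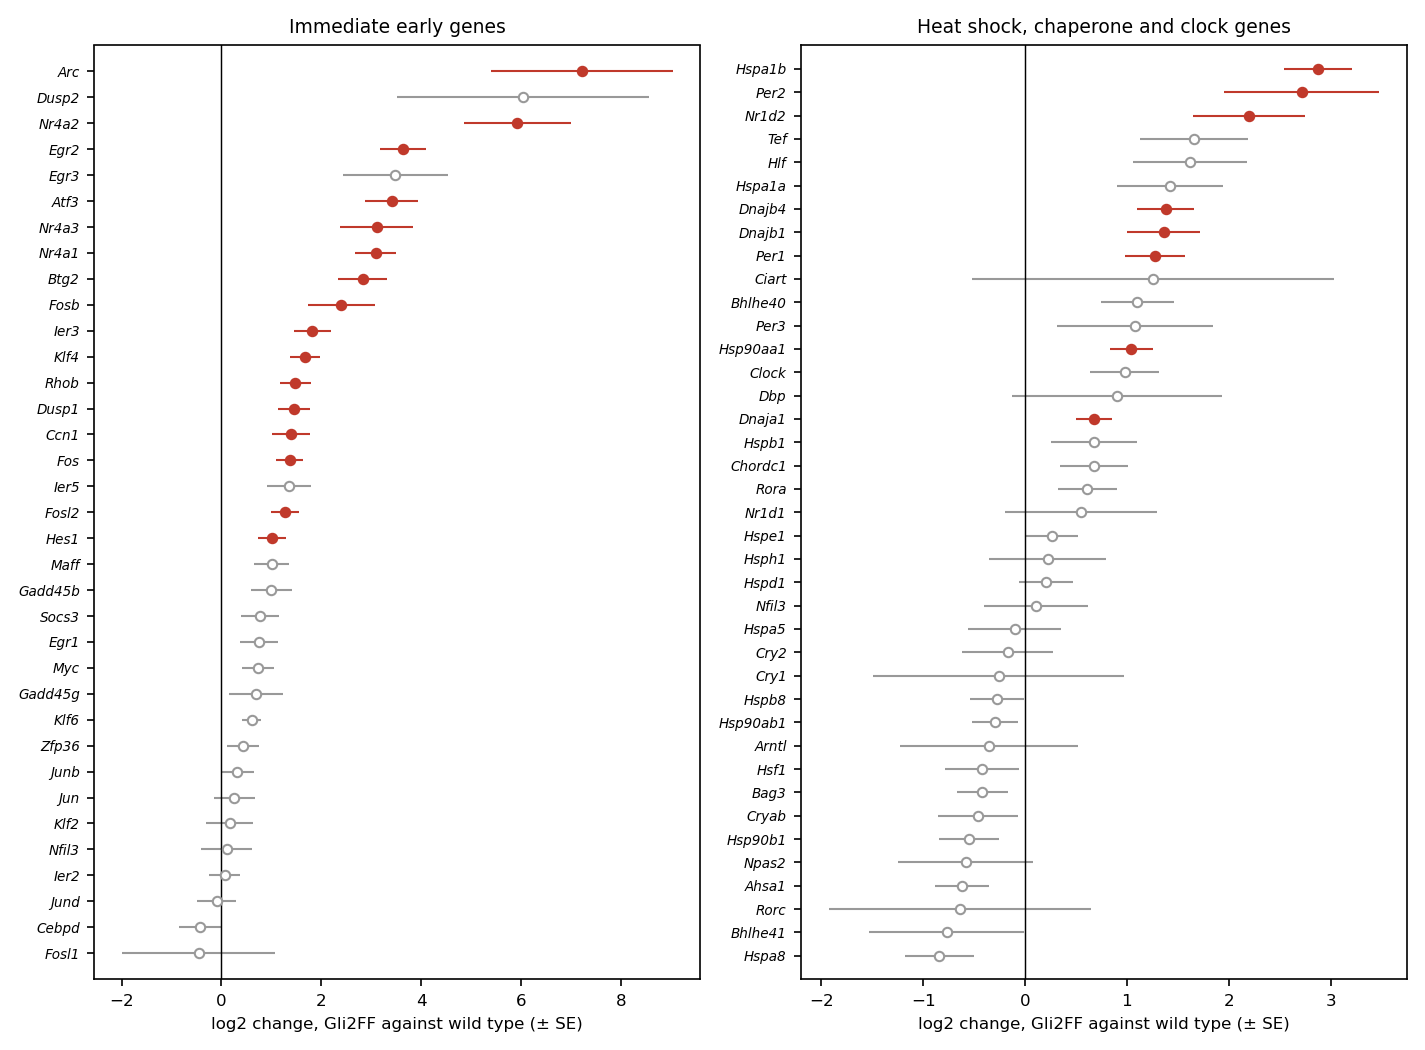
Log2 change of the tested immediate early genes (left) and heat shock, chaperone and clock genes (right) in Gli2FF against wild type, with the standard error of the fit as bars. Filled points passed an adjusted p of 0.05, and open grey points did not. The left panel holds 16 filled points, all to the right of 0.

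Many genes of the non-collagenous matrix were lower in Gli2FF. Of 48 tested proteoglycans and matrix glycoproteins 15 were lower and 3 were higher, with a median log2 change of -0.67 against 0.12 over all genes, while 3.26% of all genes were called lower. Bgn, the small leucine-rich proteoglycan biglycan, was at 2738, 2791, 2557, 2132 and 2038 CPM in wild type and at 710 and 776 CPM in Gli2FF. The Gli2FF libraries were close to each other and far below the lowest control, and the log2 change of -1.72 ± 0.24 (adjusted p = 0.000177) was called in all 19 alternatives. Ecm1, a secreted glycoprotein of skin and connective tissue, was at 542, 486, 484, 531 and 491 CPM in wild type and at 135 and 198 CPM in Gli2FF (log2 change -1.60 ± 0.23, adjusted p = 0.000218), again in all 19. Other members with a fall were Fmod, the collagen-binding fibromodulin (log2 change -2.05 ± 0.45), Postn, the matricellular protein periostin (-1.89 ± 0.37), Fbln1 and Efemp1 of the fibulin family (-1.31 ± 0.28 and -1.46 ± 0.29) and Sparcl1 (-1.42 ± 0.34), at adjusted p from 0.00331 to 0.0133. Dcn, the proteoglycan decorin and one of the fibroblast markers, fell from 14770 to 17640 CPM to 9900 and 8605 CPM (log2 change -0.82 ± 0.20, adjusted p = 0.0159). The 3 members that rose were Thbs1, Ccn1 and Ccn2, matricellular proteins that are also induced by early and TGF-beta signals.

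Elastic fibre genes were lower as well, 5 of 15 with none higher, where 3.26% of all genes were called lower and 2.58% higher. Loxl1, a lysyl oxidase that cross-links elastin, was at 1025, 710, 596, 842 and 654 CPM in wild type and at 228 and 273 CPM in Gli2FF (log2 change -1.61 ± 0.30, adjusted p = 0.00228). Mfap4 and Mfap2, microfibril proteins, fell by 1.55 and 1.20 on the log2 scale (adjusted p = 0.00792 and 0.00836). Fbln5 and Efemp2, fibulins that guide elastic fibre assembly, fell by 1.42 and 1.21 (adjusted p = 0.00363 and 0.0114). Fibrillar collagens were not called lower in the main fit. Of 24 tested fibrillar and associated collagens 1, Col24a1, was higher and none was lower, and that call ended without either Gli2FF library (adjusted p = 0.166 and 0.224). Col1a1 was at 2424 and 2893 CPM against 3185 to 5123 CPM (log2 change -0.56 ± 0.23, adjusted p = 0.157). Both Gli2FF libraries were below every wild type library, and 1 of the 19 alternatives, limma voom, called Col1a1 lower (adjusted p = 0.00656). With limma voom 3 of the 24 were called lower and 4 higher. Col1a2 was at 2971 and 3205 CPM against 2698 to 3955 CPM, and Col3a1 at 5216 and 6550 CPM against 4244 to 8902 CPM, both inside the wild type range. Of 27 basement membrane genes Col4a5, Col4a6 and Agrn were higher and Lamb2 was lower, the latter not without either Gli2FF library (adjusted p = 0.257 and 0.255). Neither Col4a5 (log2 change 1.00, adjusted p = 0.0122) nor Col4a6 (1.63, adjusted p = 0.0132) was called without Gli2FF replicate 1 (adjusted p = 0.578 and 0.416).

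Among 34 matrix proteases and inhibitors 7 were lower and 4 were higher, where 3.26% of all genes were called lower and 2.58% higher. Serpinf1, the secreted inhibitor of angiogenesis PEDF, was at 740, 670, 743, 698 and 600 CPM in wild type and at 203 and 260 CPM in Gli2FF (log2 change -1.57 ± 0.21, adjusted p = 0.000104). Its counterpart in the other direction was Adamts1, a protease that cleaves aggrecan and versican, at 88.8, 105, 100, 95.7 and 85.3 CPM in wild type and at 336 and 546 CPM in Gli2FF (log2 change 2.21 ± 0.33, adjusted p = 0.000263). Both were called in all 19 alternatives. The serine proteases Htra1 and Htra3 and the collagen-degrading cathepsin Ctsk fell by 1.51, 1.495 and 1.34 on the log2 scale (adjusted p = 0.00484, 0.0243 and 0.00447).

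Some of the genes that mark adventitial fibroblasts were lower. Of 30 tested, 7 were lower and 1 was higher, where 3.26% of all genes were called lower and 2.58% higher. The median log2 change was -0.89, and 25 of the 30 had a negative change. None of the 7 was called both without Gli2FF replicate 1 and without replicate 2. Clec3b, the plasminogen-binding protein tetranectin, was at 2550, 2441, 2359, 2743 and 2445 CPM in wild type and at 541 and 931 CPM in Gli2FF (log2 change -1.77 ± 0.28, adjusted p = 0.000658). Pi16, a marker of a progenitor-like adventitial state, was at 987 to 1409 CPM in wild type and at 98.3 and 412 CPM in Gli2FF (log2 change -2.21 ± 0.49, adjusted p = 0.00851). Gsn, the actin-severing protein gelsolin, was at 6345 to 10310 CPM and at 2364 and 2753 CPM (-1.62 ± 0.34, adjusted p = 0.00546). Thy1 (CD90), Ly6a (Sca-1) and Cd34, surface antigens used to sort such cells, fell by 1.94, 1.35 and 0.93 on the log2 scale (adjusted p = 0.00306, 0.0197 and 0.00721). The exception was Has1, a hyaluronan synthase, at 27.2 and 119 CPM against 9.83 to 34.0 CPM. Its call rested on Gli2FF replicate 2 (adjusted p = 0.85 without it) and also ended without any of wild type replicates 1 to 4.

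The size of these falls differed between the Gli2FF animals. Replicate 1 was the lower of the pair for Clec3b, Pi16, Gsn, Ly6a, Cd34 and Pcolce2. Without it 1 of the 30 adventitial genes was called lower, and without replicate 2, 10 were. For the proteoglycans and glycoproteins the counts were 6 and 8. The calls of Clec3b, Pi16, Gsn, Ly6a, Cd34 and Pcolce2 ended without replicate 1 (adjusted p = 0.0542, 0.229, 0.138, 0.426, 0.277 and 0.447), as did those of Loxl1, Postn, Efemp1, Efemp2 and Mfap4 (0.0924, 0.132, 0.178, 0.345 and 0.212). Those of Fmod, Thy1, Ctsk and Fbln5 ended without replicate 2 (0.149, 0.0709, 0.115 and 0.088). Those of Dcn, Fbln1, Sparcl1, Mfap2, Htra1 and Htra3 ended without either library (adjusted p from 0.0648 to 0.297), and Htra3 also without wild type replicate 1 (0.0518). With wild type replicates 4 and 5 as the only controls, 4 of the 48 proteoglycans and glycoproteins and 1 of the 30 adventitial genes were called lower.

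**Figure D4:**
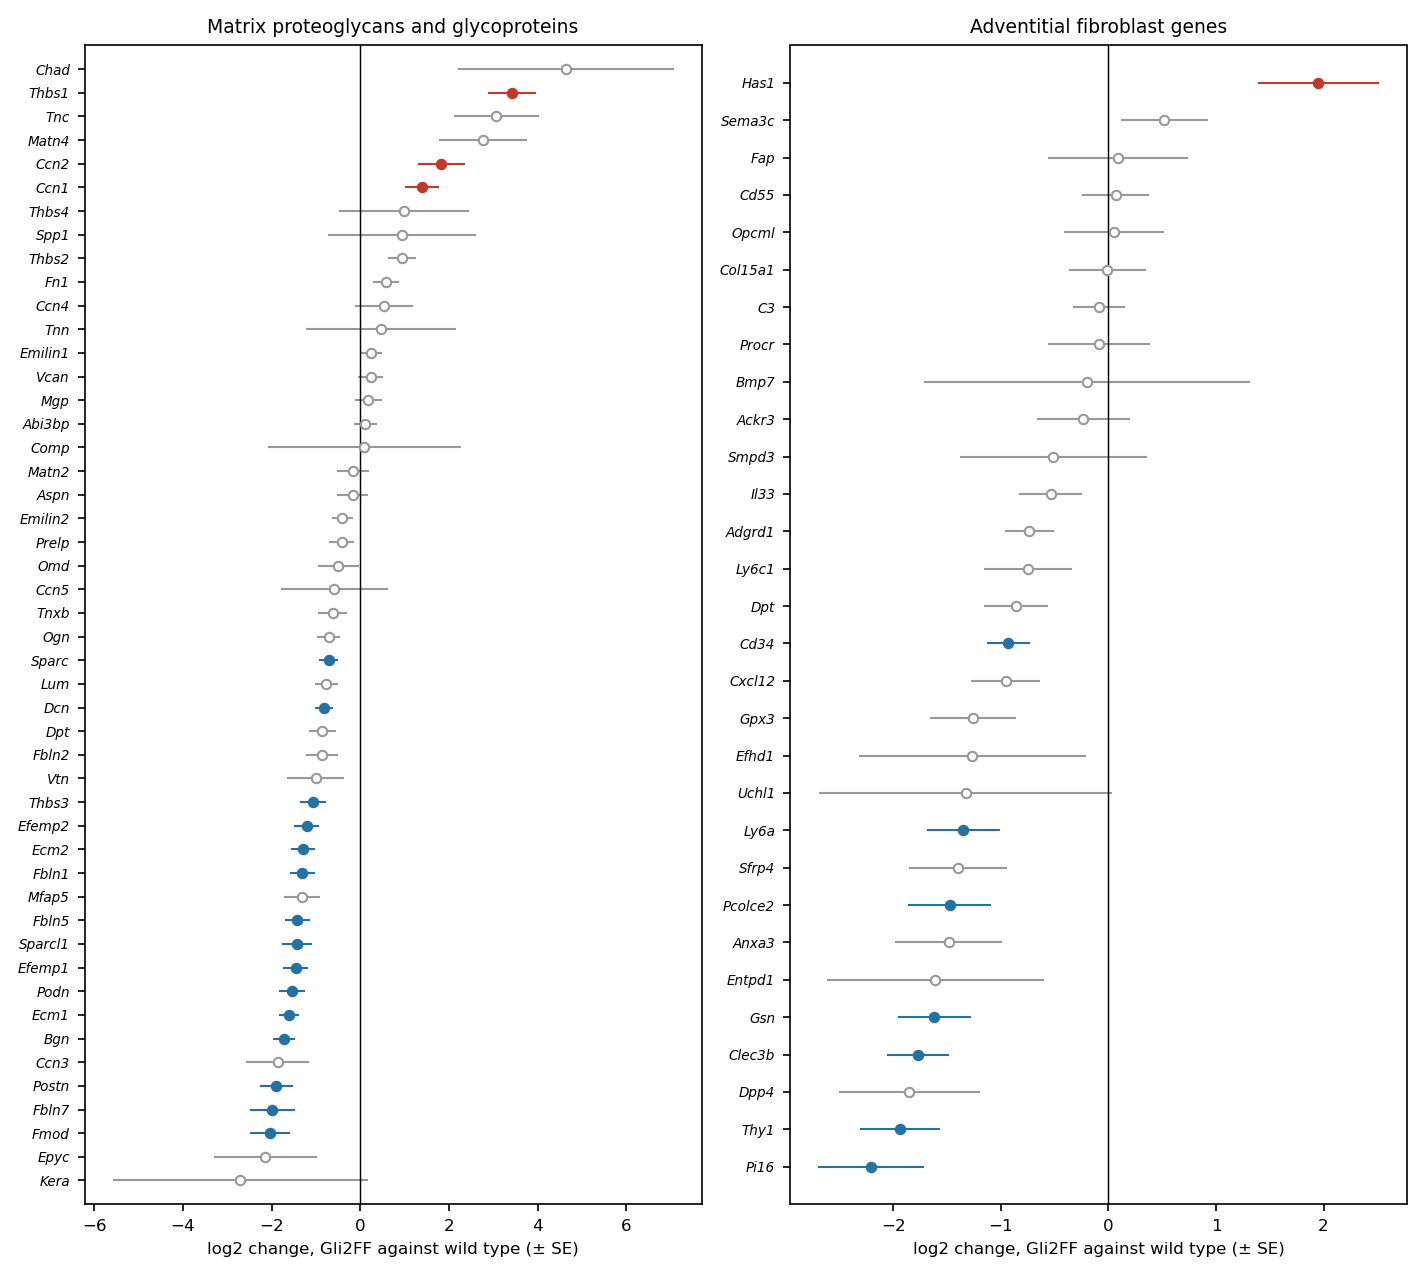
Log2 change of the 48 tested matrix proteoglycans and glycoproteins (left) and the 30 tested adventitial fibroblast genes (right) in Gli2FF against wild type, with the standard error of the fit as bars. Filled points passed an adjusted p of 0.05 (red higher, blue lower), and open grey points did not. Most points of the right panel lie below 0, with 7 blue and 1 red.

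Signalling genes changed in scattered members of each pathway. Of 23 TGF-beta ligands and modulators 6 were higher and none was lower, where 2.58% of all genes were called higher and 3.26% lower. Thbs1, the matricellular thrombospondin that can release TGF-beta from its latent form, was at 31.7, 34.2, 44.6, 28.2 and 55.3 CPM in wild type and at 387 and 440 CPM in Gli2FF (log2 change 3.42 ± 0.54, adjusted p = 0.000537). Its call was lost only with wild type replicates 4 and 5 as the sole controls (adjusted p = 0.0685). Ccn2, connective tissue growth factor, was at 8.65 to 30.1 CPM in wild type and at 53.3 and 45.8 CPM in Gli2FF. Tgfbr1, a receptor chain, rose by 1.22 on the log2 scale (adjusted p = 0.00709). Of the 6, Thbs1 alone was called both without Gli2FF replicate 1 and without replicate 2. Tgfbr1 was lost without replicate 1 (adjusted p = 0.709), and Ccn2 without either (adjusted p = 0.352 and 0.163) and also without wild type replicate 1, 2, 3 or 5 (up to 0.0992). The ligand-trapping BMP antagonist Chrdl1 fell from 53.0 to 75.9 CPM to 21.2 and 11.7 CPM (log2 change -1.91 ± 0.36, adjusted p = 0.00239), a call lost only without Gli2FF replicate 2 (adjusted p = 0.0667). The BMP receptor genes Bmpr1a and Bmpr2 rose by 0.94 and 0.87 (adjusted p = 0.00649 and 0.0171), and neither was called without Gli2FF replicate 1 (adjusted p = 0.45 and 0.459).

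Wnt genes changed in both directions. Wnt4, a ligand of mesenchyme and duct development, was at 2.45 to 7.70 CPM in wild type and at 36.4 and 27.5 CPM in Gli2FF (log2 change 2.46 ± 0.43, adjusted p = 0.00142), and was not called without Gli2FF replicate 1 (adjusted p = 0.0543). Wnt16 was also called, on 27 and 40 counts in Gli2FF and 2 counts in a single wild type library, which is too few for a fold. Of 17 Wnt modulators 2, the secreted antagonists Wif1 and Sfrp2, were lower, where 3.26% of all genes were called lower. Wif1, which binds Wnt ligands and is a known Hedgehog-responsive gene in some tissues, was at 20.8, 26.2, 26.1, 16.4 and 32.6 CPM in wild type and at 5.17 and 1.26 CPM in Gli2FF (log2 change -2.94 ± 0.83, adjusted p = 0.0366). It was not called without either Gli2FF library (adjusted p = 0.111 and 0.304) or without wild type replicate 1, 2 or 3. Sfrp2 was at 120 to 245 CPM in wild type and at 22.9 and 64.4 CPM in Gli2FF (-2.06 ± 0.44, adjusted p = 0.00611), and was not called without Gli2FF replicate 1 (adjusted p = 0.23).

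Growth factor binding and imprinted genes were mostly lower where they were called. Besides Igfbp6, Igfbp7 fell from 650 to 1764 CPM to 480 and 253 CPM (log2 change -1.73 ± 0.33, adjusted p = 0.00244), a call lost without Gli2FF replicate 2 (adjusted p = 0.0658). Igfbp4 fell by 1.00 on the log2 scale (adjusted p = 0.0354), which ended without either Gli2FF library (0.18 and 0.255) and without wild type replicate 1 or 2 (up to 0.0824). The 18 tested imprinted growth genes had a median log2 change of 0.14, and 10 of the 18 were above 0. Of the 18, 6 were called lower and none higher, where 3.26% of all genes were called lower and 2.58% higher. That split depended on the settings, with 2 higher and 4 lower under RLE scaling, 3 and 7 with DESeq2, and 3 and 6 with limma voom. Mest, which marks embryonic mesoderm, was at 4.93 and 6.88 CPM against 19.5 to 47.6 CPM. Ndn, a growth suppressor, was at 38.3 and 43.3 CPM against 97.6 to 138 CPM, and Cdkn1c, an inhibitor of cyclin-dependent kinases, at 30.8 and 9.89 CPM against 47.4 to 104 CPM. Dcn is counted on this list too, and none of the 6 was called in both settings that leave out a Gli2FF library (for Mest 0.163 without replicate 1, for Cdkn1c 0.276 without replicate 2, for Ndn 0.257 and 0.101 as adjusted p). Pcna, the DNA polymerase clamp and the only called gene of 43 tested cell cycle genes, was at 50.3 and 64.2 CPM against 13.4 to 21.4 CPM (log2 change 1.76 ± 0.27, adjusted p = 0.000366, called in all 19 alternatives). The cell cycle list had a median log2 change of 1.29, with 39 of 43 members above 0. Members called higher numbered 9 with no filter on low counts, 5 with limma voom and 4 with DESeq2. Without Gli2FF replicate 2 the median was -0.12.

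Immune signalling showed no common direction. Of 39 chemokines and cytokines 3 were higher and 3 were lower, where 2.58% of all genes were called higher and 3.26% lower. Il6 was at 35.8 and 53.7 CPM against 0.599 to 7.41 CPM, and the neutrophil attractants Cxcl1 and Cxcl5 were at 212 and 447 CPM against 52.4 to 122 CPM and at 96.7 and 159 CPM against 28.5 to 43.7 CPM. Ccl8, a monocyte attractant, was at 0.996 and 1.39 CPM against 2.37 to 94.0 CPM, a range in wild type so wide that its log2 change of -5.20 had a standard error of 1.39 (adjusted p = 0.0272). Among the wild type libraries Ccl8 was lowest in replicates 2 and 5 (128 and 70 counts). The immune marker Lyz2 was lowest in the same libraries (4.32 and 3.51 CPM), and a link to immune cells was not tested. Il6 (0.0794 and 0.111) and Ccl8 (0.332 and 0.176) were not called without either Gli2FF library, nor Ccl8 without wild type replicate 1 (0.0574), and Cxcl1 and Cxcl5 were not called without Gli2FF replicate 2 (0.226 and 0.214). Of 19 genes of antigen presentation by class I 3 were lower, against the same 3.26% of all genes. Tapbp, the chaperone tapasin that loads peptides, was at 352, 305, 298, 307 and 257 CPM in wild type and at 127 and 96.4 CPM in Gli2FF (log2 change -1.44 ± 0.22, adjusted p = 0.000379). H2-T22, a nonclassical class I gene, was at 39.0 to 62.3 CPM and at 15.4 and 7.54 CPM (-2.19 ± 0.38, adjusted p = 0.00142). Both were called in all 19 alternatives, though class I genes resemble each other closely and reads can be split between them.

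Further single genes were called in each of the 19 alternatives. Rgs2, an inhibitor of G protein signalling that cyclic AMP induces, was at 1.45 to 4.38 CPM in wild type and at 25.9 and 37.6 CPM in Gli2FF (log2 change 3.48 ± 0.47, adjusted p = 0.000133). Ucp2, a mitochondrial carrier, was at 22.3, 23.8, 20.4, 26.1 and 18.9 CPM in wild type and at 134 and 139 CPM in Gli2FF (2.61 ± 0.30, adjusted p = 3.73e-05). Ucp2 ran from 134 to 457 CPM in the 8 libraries with a floxed Gli allele. In the 9 wild type and SmoFF libraries it ran from 18.9 to 224.5 CPM. Nenf, which encodes the secreted neudesin, was at 140 to 182 CPM in wild type and at 19.1 and 14.3 CPM in Gli2FF (-3.23 ± 0.48, adjusted p = 0.000263). Nphs1, best known as nephrin of the kidney filter, was at 18.0 to 35.1 CPM and at 2.13 and 2.35 CPM. Trim12a, an antiviral ubiquitin ligase of a variable gene cluster, was at 6.53 to 15.2 CPM in wild type, at 0.617 and 0.529 CPM in Gli2FF and at 0.117 to 0.444 CPM in SmoFF.

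Some of the strongest calls concern genes with near-identical copies, for which the counting can split reads. Rps2, a ribosomal protein gene, was at 536, 601, 478, 428 and 409 CPM in wild type and at 26.0 and 24.7 CPM in Gli2FF (log2 change -4.27 ± 0.28, adjusted p = 4.96e-09). Over the same libraries Rps2-ps13, annotated as one of its pseudogenes, rose from 9.59 to 16.9 CPM to 59.2 and 73.5 CPM. The sum of the 13 genes named Rps2 or Rps2-ps was 457 to 662 CPM in wild type and 136 and 134 CPM in Gli2FF, so the fall was smaller in the sum. Rpl34 fell from 115 to 176 CPM to 26.7 and 26.9 CPM while Rpl34-ps2 rose from 5.20 to 6.87 CPM to 31.4 and 24.7 CPM. Here the sum of 3 genes was 434 and 359 CPM against 340 to 420 CPM, and the groups overlapped. Of 80 ribosomal protein genes, a list drawn up after the values were seen, 16 were lower and 1 was higher, where 3.26% of all genes were lower and 2.58% higher, and the median log2 change was -0.54. Rps2 ran from 24.7 to 62.9 CPM in the 8 libraries with a floxed Gli allele and from 380 to 601 CPM in the 9 wild type and SmoFF libraries. Rab5if (0.278 to 2.90 against 10.3 to 22.7 CPM) and Nphs1 (1.59 to 4.51 against 18.0 to 51.9 CPM) divided the same libraries. Plac9a, Plac9b and Gm9780, neighbouring copies on chromosome 14, summed to 717 to 1029 CPM in wild type and to 147 and 136 CPM in Gli2FF. That sum was 235 to 368 CPM in SmoFF, 369.5 and 199 in Gli3FF, 194 to 449 in Gli2FFGli3FF and 395 to 716 in SmoM2. In Ctnnb1FF it was 1120 to 2263 CPM. Cwc22, a splicing factor gene with clustered copies on chromosome 2, was at 6.01 to 14.1 CPM in wild type, 292 and 67.2 CPM in Gli2FF, 89.1 to 175 CPM in SmoFF and 7.99 and 8.73 CPM in Gli3FF. The labels give neither strain nor run, so these and genotype cannot be told apart for these genes.

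Direct comparison with Gli3FF tested where the genotypes of these related factors differed, without using the wild type libraries in the contrast. Of 24383 genes 1181 were called (4.84%), 558 higher and 623 lower in Gli2FF, with a median log2 difference of 0.34 over all genes. The libraries differed in other measures too. In Gli3FF the ribosomal RNA locus took 39.1% and 24.5% of reads, against 13.5% and 8.56% in Gli2FF. TMM factors were 0.707 and 1.04 against 1.405 and 1.445, and genes detected 17544 and 22143 against 25279 and 28028. The part of these differences in the calls was not tested. Gli3 itself was at 14.4 and 12.3 CPM in Gli3FF and higher in Gli2FF (log2 difference 1.53 ± 0.43, adjusted p = 0.0424), a call that ended without any 1 of the 4 libraries. Of 29 Hedgehog target genes 7 were lower in Gli2FF than in Gli3FF and none was higher, where 2.56% of all genes were called lower. Of these 7, Igfbp6 alone was also called lower in Gli2FF against wild type. Hhip, Bmp4 and Tcf21 were not called against wild type, so this contrast alone does not show which group moved. In counts not scaled to depth, Bmp4 was at 639 to 1114 in wild type and at 527 and 594 in Gli2FF. Tcf21 was at 1141 to 1923 such counts in wild type and at 1502 and 1106 in Gli2FF, and Hhip at 37 to 427 and at 10 and 30. Hhip was at 32.7 and 21.2 CPM in Gli3FF (log2 difference -5.16 ± 1.18, adjusted p = 0.0117), Bmp4, a secreted growth factor, at 272 and 230 CPM against 25.0 and 19.6 CPM in Gli2FF (-3.49 ± 0.42, adjusted p = 3.58e-05), and Tcf21, a mesenchymal factor, at 267 and 227 CPM against 71.2 and 36.6 CPM (-2.19 ± 0.42, adjusted p = 0.00347). Tcf21 was not called without Gli2FF replicate 2 (adjusted p = 0.068). Hhip was not called without either Gli2FF library (adjusted p = 0.167 and 0.0781) or without Gli3FF replicate 1 (0.0737). Wif1 was at 440 and 442 CPM in Gli3FF, a log2 difference of -7.12 ± 1.07 (adjusted p = 0.000362) that was called without each of the 4 libraries. Sfrp2 differed in the other direction, at 0.915 and 1.23 CPM in Gli3FF (log2 difference 5.34 ± 0.58, adjusted p = 1.6e-05). Bgn, Fmod, Serpinf1 and Chrdl1 were lower in Gli2FF by 2.46, 3.78, 2.62 and 3.34 on the log2 scale, and stayed called without each of the 4 libraries. Of 35 immediate early genes 6 were higher in Gli2FF, against 2.29% of all genes, among them Klf4 (2.60 ± 0.41, adjusted p = 0.00056) and Hes1, a repressor of the Notch pathway (2.19 ± 0.37, adjusted p = 0.00117). Klf6, Fosl2, Klf2 and Ier5 were also among them, and the median log2 difference of the list was 1.38. Nr4a1, Nr4a2, Nr4a3, Egr2, Atf3, Btg2, Fos and Dusp1, which were called higher against wild type, were not called against Gli3FF. When the spread was estimated from these 4 libraries alone, 0 genes were called by edgeR, with 4456 at an unadjusted p under 0.05. With the shared spread DESeq2 called 2393 and limma voom 2826.

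Direct comparison with Gli2FFGli3FF, in which both factors are floxed, gave 2099 calls (8.61%), 1048 higher and 1051 lower in Gli2FF, with a median of 0.31 over all genes. Gli1 was at 0.270, 1.06, 0.430 and 2.51 CPM in Gli2FFGli3FF and at 13.0 and 4.73 CPM in Gli2FF, a log2 difference of 3.03 ± 0.75 (adjusted p = 0.0154) with no overlap. It was not called without Gli2FF replicate 1 (adjusted p = 0.225) or Gli2FFGli3FF replicate 3 (0.0504). Gli3 was 2.73 ± 0.36 higher on the log2 scale (adjusted p = 0.000181), and Gli2, floxed in both groups, did not pass the test (1.02 ± 0.51, adjusted p = 0.191). Apart from Gli1, no other Hedgehog target gene of 29 was called. Chrdl1, Fmod, Bgn, Cfb (a complement protease) and Wif1 were lower in Gli2FF by 1.998, 1.94, 1.04, 1.86 and 2.81 on the log2 scale (adjusted p from 0.00198 to 0.0392), although the call of each ended without one or the other Gli2FF library. Immediate early genes were higher in 7 of 35, against 4.30% of all genes, and none was lower. Nr4a1 was at 88.8, 61.1, 69.4 and 143 CPM in Gli2FFGli3FF and higher in Gli2FF by 2.26 ± 0.45 (adjusted p = 0.00341). Of 39 oxidative phosphorylation genes 25 were lower in Gli2FF and none was higher, with a median of -1.28, where 4.31% of all genes were called lower. Of 13 mitochondrially encoded genes 7 were lower and none was higher. The Gli2FFGli3FF libraries also stood apart in other measures. Their share of reads at the ribosomal RNA locus was 38.35% to 50.03% against 13.5% and 8.56% in Gli2FF, and of the other reads mitochondrial genes took 11.5% to 15.7% against 4.62% and 6.86%, and pseudogenes 10.66% to 11.45% against 5.39% and 5.65%. TMM factors were 0.552 to 0.743 against 1.405 and 1.445, and the part of these differences in the calls was not tested. Per1 and Nr1d2 were higher by 1.35 and 2.01 (adjusted p = 0.0105 and 0.0369), and neither was called without Gli2FF replicate 1 (adjusted p = 0.259 and 0.307). Restricting the fit to 15237 protein-coding genes gave 1017 calls, where 1166 of the 2099 calls of the main fit were protein-coding.

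Direct comparison with SmoFF, in which the upstream transducer is floxed, gave 597 calls (2.45%), 279 higher and 318 lower in Gli2FF, with a median of 0.09 over all genes. Smo was at 9.05, 7.79, 6.81 and 7.86 CPM in SmoFF and at 51.0 and 49.4 CPM in Gli2FF (log2 difference 2.67 ± 0.26, adjusted p = 3.57e-06). Osr1 and Igfbp6 were lower in Gli2FF by 1.20 ± 0.24 and 1.34 ± 0.25 (adjusted p = 0.00746 and 0.0046) and Grem1 was higher by 3.66 ± 0.66 (adjusted p = 0.00353), in each case without overlap. None of the 3 was called without Gli2FF replicate 1 (adjusted p = 0.329, 0.0919 and 0.218), and Igfbp6 was also lost without replicate 2 (0.0604). Fibrillar and associated collagens were higher in Gli2FF in 6 of 24 and lower in none, where 1.14% of all genes were called higher. Col1a1 was at 1397, 1163, 1142 and 2144 CPM in SmoFF and Col3a1 at 2775, 2378, 2176 and 4183 CPM, below both Gli2FF libraries (log2 differences 0.86 ± 0.22 and 1.03 ± 0.25, adjusted p = 0.0369 and 0.0247). Those 2 calls ended without either Gli2FF library (adjusted p from 0.126 to 0.363). Ccn2 was at 0.795 to 3.97 CPM and Col4a5, a basement membrane collagen, at 18.8 to 23.3 CPM in SmoFF, and both were higher in Gli2FF by 4.26 ± 0.59 and 2.30 ± 0.24 (adjusted p = 0.000273 and 9.75e-06), without each of the 6 libraries too. Of 30 adventitial genes 7 were lower in Gli2FF than in SmoFF, against 1.30% of all genes. Egr2 and Hspa1b were higher by 3.74 ± 0.50 and 2.67 ± 0.36 (adjusted p = 0.000206 and 0.000195), again without each library. With the spread of these 6 libraries alone, 60 genes were called.

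**Figure D5:**
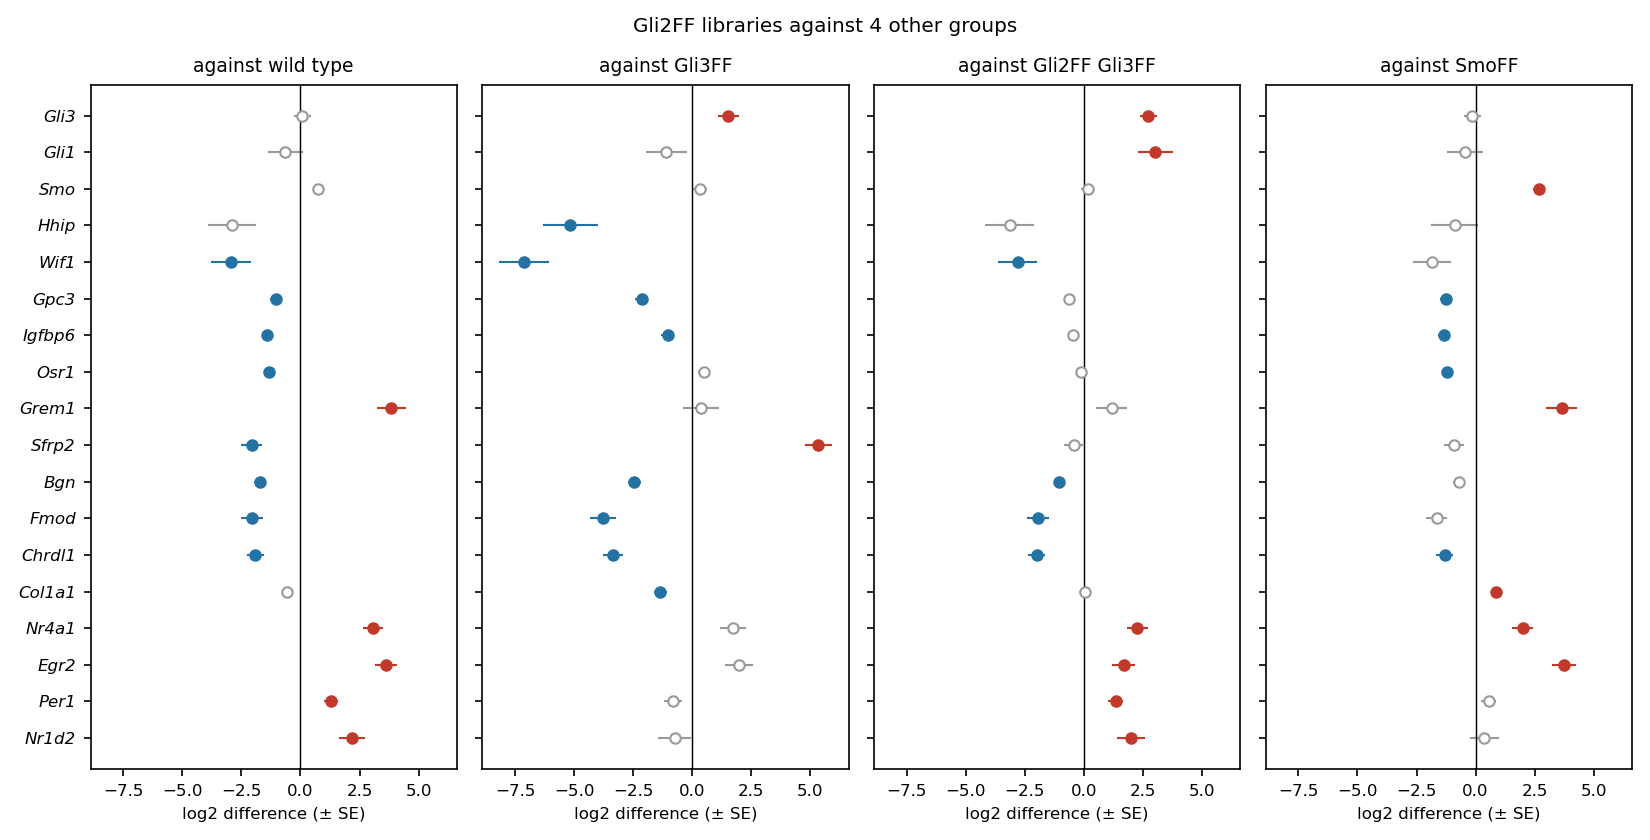
Log2 difference of Gli2FF from wild type, Gli3FF, Gli2FFGli3FF and SmoFF for 18 genes described in the text, with the standard error of the fit as bars. Filled points passed an adjusted p of 0.05 (red higher, blue lower in Gli2FF), and open grey points did not. All panels share the Gli2FF libraries, so their points are not independent. Hhip and Wif1 lie farthest to the left against Gli3FF, at -5.16 and -7.12.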

How the data were processed

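RNA was measured by sequencing of amplified full-length cDNA from about 1000 sorted cells per animal. The counts deposited by the authors are unscaled whole numbers of reads, 1 row for each gene symbol. The build is mm10 per the submitters' processing notes, while aligner, counter, annotation and strand setting are not given in the sources. Of the 55401 symbols 53292 matched GENCODE M21. All 23 Pdgfra libraries (15021796 to 38301189 counts) entered 1 edgeR 4.0.16 fit in R 4.3.3 (filterByExpr, TMM scaling, quasi-likelihood test, Benjamini-Hochberg adjustment over 24383 genes), and every adjusted p and SE in the text is from it or from its alternatives. Called means an adjusted p under 0.05. CPM are counts scaled to the TMM-adjusted library size. Animals are the replicates, and with 2 Gli2FF animals the spread is borrowed from the other groups. A fit without 1 Gli2FF library assumes that the lone library varies like the others.

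For the main comparison 19 alternatives were run: RLE scaling, DESeq2 1.42.0, limma 3.58.1 voom with quality weights, 2 other filters, only the compared groups, a replicate block, leaving out the ribosomal RNA locus, sex-linked transcripts or all but protein-coding genes, each of 7 libraries left out, and wild type replicates 1 to 3 or 4 and 5 as controls. The alternative without sex-linked transcripts only removed their rows from the main results, with no new fit or adjustment. It could therefore change no other call. The procedure was tested on simulated data. Members and lists were chosen with earlier results of these data known. Named genes were the Hedgehog lists, the called genes that rose or fell most (up to 12 each way) at a mean log2 CPM of at least 3 without overlap of groups, and up to 4 called genes per list with the smallest p; some of them are not reported here. Nr4a3, Fos, Dusp1, Fmod, Postn, Fbln1, Efemp1, Efemp2, Sparcl1, Htra1, Htra3, Pi16, Ly6a, Pcolce2, Has1, Col1a1, Col1a2, Col3a1, Rpl34, Rps2-ps13, Rpl34-ps2, Plac9a and Gm9780 were chosen after their values were seen. Promoter sequences are RefSeq's (GRCm38.p6).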

Additional observations from a re-analysis of the deposited data

Results flagged for a closer look

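In 134 groups of 4 or 5 libraries of the named genes, 9 held a library far from the rest by Dixon's test, and chance flags about 1 in 20 groups. In wild type replicate 5, Gli1 (27.0 CPM), Nr4a3 (15.2 CPM) and Vegfa (30.8 CPM) lay above the other 4 wild type libraries, and Plac9a (146.5 CPM) lay below them. In wild type replicate 1, Mest (47.6 CPM) and Per1 (34.25 CPM) lay above the others, and in wild type replicate 4 so did Ccn2 (30.1 CPM). Among the other genotypes, Gpc3 was high in SmoFF replicate 1 (383.8 CPM) and Chrdl1 was low in Gli2FFGli3FF replicate 2 (27.7 CPM).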

How the results depend on the processing

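With 2 Gli2FF animals the number of calls depends on single libraries and on the tool, and the cause was not tested. The setting with protein-coding genes only also tested fewer genes, 15237 against 24383. Of the 2099 calls against Gli2FFGli3FF, 1166 were protein-coding. Against wild type, 1423 calls became 2642 with DESeq2, 5732 with limma voom, 2343 with only the 2 groups in the fit and 200 with wild type replicates 4 and 5 as controls, and ran from 179 to 1506 over the libraries left out. Against Gli3FF, 1181 became 2393, 2826 and 0 (the first 3 settings in order; 4456 genes had an unadjusted p under 0.05 in the last), and 223 to 1082 over libraries left out. Against Gli2FFGli3FF, 2099 became 6524 with limma voom, 3542 with only the 2 groups and 1017 with protein-coding genes only, and 291 to 1762 over libraries left out. Against SmoFF, 597 became 1417 with DESeq2, 2151 with limma voom and 60 with only the 2 groups, and 82 to 612 over libraries left out.

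Immediate early genes called higher went from 16 to 2 with wild type replicates 4 and 5 as controls, and 9 to 16 over libraries left out. Proteoglycans and glycoproteins called lower went from 15 to 23 with limma voom and 4 with wild type replicates 4 and 5, and 6 to 16 over libraries left out. Adventitial genes called lower went from 7 to 13 with DESeq2, 16 with limma voom, 14 with no filter, 12 with only the 2 groups and 1 with wild type replicates 4 and 5, and 1 to 10 over libraries left out.

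The direction turned for Gli3 over the libraries left out (log2 change -0.304 without Gli2FF replicate 1 to 0.302 without Gli2FF replicate 2, and -0.017 without wild type replicate 5), for Ptch1 (-0.118 to 1.894, in the same order of Gli2FF libraries) and for Col3a1 (0.015 without Gli2FF replicate 1, -0.353 without replicate 2 and 0.045 without wild type replicate 1). With wild type replicates 4 and 5 as controls it turned for Col3a1 (0.171) and Col1a2 (0.098), and for Col1a2 with RLE scaling and DESeq2 too (0.008 in each). Of the 95 genes named as called against wild type, 95 kept the call with DESeq2, 92 with RLE scaling, 44 without Gli2FF replicate 1, 60 without Gli2FF replicate 2 and 31 with wild type replicates 4 and 5 as controls.

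Deviations from the group mean in Gli2FF and in same-numbered libraries of the other compared groups had correlations from -0.095 to 0.051. The deviations of 2 Gli2FF libraries mirror each other, so these values cannot show whether replicate numbers pair the animals. With the replicate block the calls were 1282 against wild type, 970 against Gli3FF, 2004 against Gli2FFGli3FF and 433 against SmoFF, and in that block fit Gli1 (0.008) and Gli3 (-0.032) turned direction.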
